A study of Mus musculus with 12 samples.

Results

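The Rab GTPases are the small proteins that give each membrane compartment of a cell its identity, and this account follows their transcripts, with that of Mreg, in alveolar macrophages 60 days after carbon nanotubes were instilled into the airways of mice. A gene was taken as a member where its platform symbol was Rab followed by a number from 1 to 43 and at most 1 letter. Mreg, which encodes the organelle adaptor melanoregulin, was added by name. These rules gave 59 of the 19057 named genes on the array, and 45 of them had a probe detected on at least 3 of the 12 arrays and were tested. Each gene was read from its probe with the highest mean signal.

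The tested mice received 100 µg of multiwalled carbon nanotubes (MWCNT) in 35% surfactant/saline by the oropharyngeal route, and the control mice received the surfactant/saline alone (6 arrays in each group). All were C57Bl/6 mice, and lavage at day 60 gave alveolar macrophages of over 90% purity per the labels. The RNA of each sample went to 1 Illumina Mouse WG-6 v2 array. The sample titles give a group and a replicate number. The labels state neither age nor sex. MWCNT are stiff fibres that macrophages engulf and break down poorly, and the study used them as a mouse model of chronic granulomatous inflammation. Values are normalized log2 intensities, on which a difference of 1 is a doubling of signal.

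Rab proteins cycle between a GDP-bound form held in the cytosol and a GTP-bound form on a membrane. Exchange factors load them with GTP, GTPase-activating proteins switch them off, and the loaded form recruits effectors such as motors and tethers. In a macrophage, a particle taken up lies first in a compartment marked by Rab5 proteins, which then exchanges Rab5 for Rab7 and fuses with lysosomes, while Rab11 and Rab4 proteins return membrane to the surface.

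Among arrays, 39.1% to 40.5% of probes were detected with MWCNT and 38.0% to 39.3% in controls. The raw background signal was 135.3 to 159.9 on MWCNT arrays and 124.4 to 139.1 on control arrays. The raw median signal was 152.5 to 183.4 on MWCNT arrays and 140.4 to 160 on control arrays. The part of this difference in the results for dim genes was not tested. Y-linked probes reached 10.73 and 10.87 on MWCNT arrays 5 and 6 and at most 6.17 on each of the other arrays, controls included. Of 12 marker genes of resident alveolar macrophages on the array, 10 were detected on all 12 arrays, and Siglecf and Fabp1 were detected on none. Their summed level was 16.42 to 16.54 on MWCNT arrays and 16.56 to 16.63 on control arrays, with 2 markers raised and 2 lowered. Of 14 tested T and NK cell markers 10 were raised, with a summed level of 13.53 to 13.96 on MWCNT arrays and 13.46 to 13.69 on control arrays, while Cd4, Cd5, Cd8a, Gzmb and Ncr1 were detected on no array. Of 12 markers of monocyte-derived macrophages 9 were raised (14.95 to 15.37 with MWCNT, 14.43 to 14.65 in controls), with Itgam detected on no array. Of 7 neutrophil markers 4 were raised (12.12 to 13.002 with MWCNT, 11.37 to 12.03 in controls), with Camp, Elane, Mmp8, Mpo and Ngp detected on no array. Of 5 B and plasma cell markers 3 were raised (10.05 to 11.09 with MWCNT, 9.66 to 9.96 in controls), with Cr2, Jchain and Pax5 detected on no array. The 3 raised (Cd79b, Blk and Mzb1) were each detected on 5 MWCNT arrays and no control array. They thus entered the test through the MWCNT arrays alone. Cd22, detected on all 12 arrays, differed by 0.05 and was not raised. Of 9 dendritic cell markers 5 were raised (14.42 to 14.86 with MWCNT, 14.52 to 14.75 in controls), with Flt3 and Xcr1 detected on no array. Of the 5 raised, Ccl22 (detected on 5 MWCNT arrays) and Zbtb46 (on 3) were detected on no control array. Both entered the test through the MWCNT arrays alone. Detection on all 12 arrays held for 5 of the 14 T and NK cell markers, 8 of 12 monocyte-derived, 3 of 7 neutrophil and 7 of 9 dendritic cell markers. Raised markers short of this may also have entered the test through the MWCNT arrays alone. Epithelial markers had 2 of 8 raised (12.89 to 14.80 with MWCNT, 11.27 to 13.70 in controls; Epcam and Krt5 detected on no array), and fibroblast and endothelial markers 2 of 4 (10.94 to 11.26 with MWCNT, 10.45 to 10.91 in controls; Cldn5, Col1a1, Col1a2 and Col3a1 detected on no array). Eosinophil and mast cell markers had 2 of 3 raised (10.55 to 11.83 with MWCNT, 9.13 to 9.70 in controls), and 6 more, Cpa3 and Epx among them, were detected on no array. Here 6 of 8 epithelial, 1 of 4 fibroblast and endothelial and 2 of 3 eosinophil and mast cell markers were detected on all 12 arrays. Of all named genes tested, 7.48% were raised. The part of these other cells in the results that follow was not tested.

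Of the 45 tested genes, 3 were raised in MWCNT macrophages (Mreg, Rab15 and Rab34), 3 were lowered (Rab13, Rab23 and Rab22a) and 39 were not called. The test was limma with Benjamini-Hochberg adjustment over 13210 features, and a call is an adjusted p under 0.05. Among all 10143 named genes tested, 12.8% were called, 7.48% raised and 5.30% lowered, and among the Rab genes and Mreg 13.3% were called, so the share of calls was near that of the whole array. Without Mreg, which was added by name, 2 of 44 Rab genes were raised and 3 lowered. Rab15, 1 of the raised genes, was detected on no control array and entered the test through the MWCNT arrays alone. The median log2 fold change was 0.02 over the 45 genes, with 23 above 0 and 22 below, and -0.02 over all named genes. For 3 genes the lowest MWCNT array exceeded the highest control array, as it did for 4.41% of all named genes, and for 1 gene the highest MWCNT array was under the lowest control array (2.59% of all named genes). In RNA from a mixed lavage, fewer cells of a type and less RNA per cell cannot be told apart.

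**Figure D1:**
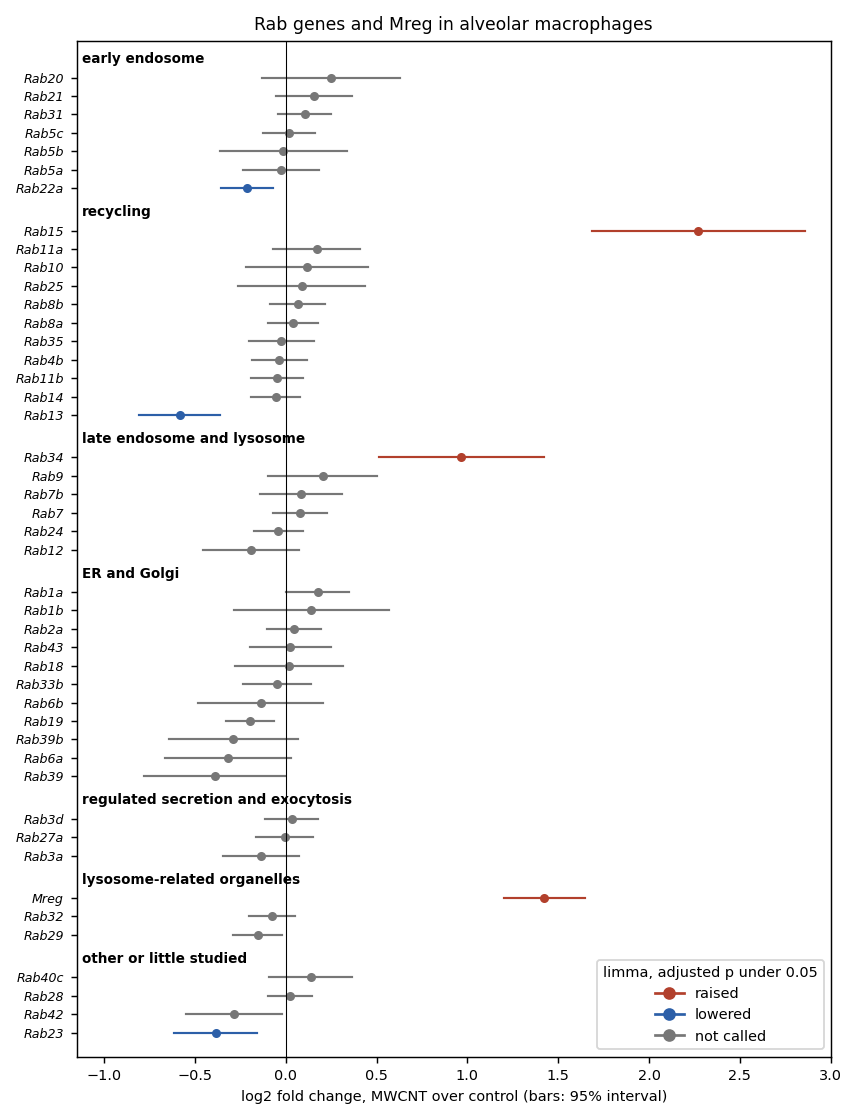
Log2 fold change, MWCNT over control, of the 45 tested genes, grouped by the compartment where each Rab is best known (6 arrays per group). Points are limma estimates, bars their 95% intervals, and colours mark genes raised, lowered or not called. Rab15 (2.27) and Mreg (1.42) lie farthest to the right, Rab13 (-0.58) farthest to the left, and most others cluster around 0.

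The promoters of Mreg, Rab15, Rab34 and Rab13 are shown because these are the called genes whose MWCNT and control arrays did not overlap. They run from 250 bases before to 50 after the most upstream start that RefSeq lists (build GRCm38.p6). That of Mreg is at chr1:72212265-72212564 on the minus strand, that of Rab15 at chr12:76822475-76822774 on the minus strand, that of Rab34 at chr11:78188177-78188476 on the plus strand and that of Rab13 at chr3:90213465-90213764 on the plus strand. Capitals mark matches, on either strand, to an E-box (CACGTG, read by the lysosomal regulators of the TFEB family among others), an AP-1 site (TGANTCA) or a PU.1 site (GAGGAAGT, the macrophage lineage factor), motifs that do not overlap each other here.
Mreg: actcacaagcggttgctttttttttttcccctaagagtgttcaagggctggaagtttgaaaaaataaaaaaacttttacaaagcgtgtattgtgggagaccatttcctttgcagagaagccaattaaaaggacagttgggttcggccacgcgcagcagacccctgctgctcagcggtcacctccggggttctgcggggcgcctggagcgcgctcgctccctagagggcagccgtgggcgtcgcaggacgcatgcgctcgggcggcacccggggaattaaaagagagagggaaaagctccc
Rab15: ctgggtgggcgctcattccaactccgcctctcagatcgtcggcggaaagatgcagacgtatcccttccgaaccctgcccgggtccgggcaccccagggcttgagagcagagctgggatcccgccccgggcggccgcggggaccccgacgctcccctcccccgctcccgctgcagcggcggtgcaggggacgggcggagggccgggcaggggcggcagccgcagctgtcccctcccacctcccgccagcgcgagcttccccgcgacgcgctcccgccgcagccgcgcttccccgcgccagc
Rab34: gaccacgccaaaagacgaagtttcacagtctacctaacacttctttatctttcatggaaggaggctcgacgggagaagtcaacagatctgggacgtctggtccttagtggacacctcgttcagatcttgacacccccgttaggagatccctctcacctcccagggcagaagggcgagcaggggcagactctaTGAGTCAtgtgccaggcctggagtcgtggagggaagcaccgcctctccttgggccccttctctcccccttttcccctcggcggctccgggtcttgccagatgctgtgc
Rab13: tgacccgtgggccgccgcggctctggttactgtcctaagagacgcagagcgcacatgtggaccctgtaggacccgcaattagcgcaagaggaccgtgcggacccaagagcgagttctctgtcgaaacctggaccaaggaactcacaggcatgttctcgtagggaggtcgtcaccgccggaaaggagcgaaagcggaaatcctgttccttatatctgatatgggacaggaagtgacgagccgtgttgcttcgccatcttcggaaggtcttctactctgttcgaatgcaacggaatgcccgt
The sole match in the 4 promoters was an AP-1 site whose first base lies 58 bases before the Rab34 start (position -58). An AP-1 match occurred in 7.81% of 32851 promoters of the same length, an E-box in 7.15% and a PU.1 match in 3.20%. Of the 59 genes, 49 had a promoter in the table, and of these 5 held an E-box (Rab5a, Rab20, Rab21, Rab23 and Rab24), 2 an AP-1 site (Rab34 and Rab39b) and 2 a PU.1 site (Rab32 and Rab2b). The promoter of Rab15 was 76.3% G and C, that of Mreg 55.3%, that of Rab13 56.7% and that of Rab34 58.0%.

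Mreg gave the smallest p of the 45 genes. Melanoregulin is known from mouse melanocytes, where it takes part in the spread of melanosomes, and from the retinal pigment epithelium, where it takes part in the breakdown of phagosomes. Its normalized level was 10.66, 11.10 and 11.39 on MWCNT arrays (lowest, median and highest) and 9.61, 9.65 and 9.81 on control arrays. The groups were far apart, with the lowest MWCNT array, array 5, still above the highest control. Mreg rose by 1.42 ± 0.10 on the log2 scale (SE, n = 6 per group; 2.68-fold; limma adjusted p = 9.25e-06). A second probe of Mreg rose by 1.34 ± 0.15 (adjusted p = 0.000104 over all kept probes). Mreg was called under each of 26 other ways of processing, with estimates of 1.24 to 1.54.

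Rab15, a GTPase of early and recycling endosomes known mainly from work on transferrin receptor traffic and on neurons, was the other strong increase. It was detected on all 6 MWCNT arrays and on no control array, so it entered the test through the MWCNT arrays alone. Its level was 6.07, 7.13 and 8.10 on MWCNT arrays (lowest, median and highest), against 4.65, 4.76 and 4.88 on control arrays. Since the control signal was not well above background, the change is a bound: Rab15 was at least 2.97-fold higher with MWCNT (limma adjusted p = 0.000145), from means of 7.04 ± 0.75 with MWCNT and 4.76 ± 0.10 in controls (SD, n = 6). The bound sets the MWCNT mean against, for each control array, the higher of its lowest detected signal and the probe's own signal. The fitted log2 difference was 2.27 here, 0.85 without background correction and 0.48 in the authors' processed values, and it was called in each.

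Rab34, which acts in macropinocytosis, in the positioning of lysosomes and in phagosome maturation, had levels of 7.06, 7.87 and 8.45 on MWCNT arrays and 6.44, 6.83 and 7.04 on control arrays (lowest, median and highest). The lowest MWCNT array and the highest control array were almost level. Rab34 rose by 0.97 ± 0.21 on the log2 scale (SE, n = 6 per group; 1.95-fold; limma adjusted p = 0.00877), and its second probe rose by 1.05 ± 0.23 (adjusted p = 0.00837 over all kept probes). In the authors' processed values the difference was 0.35 (adjusted p = 0.0216), and without background correction 0.54 (adjusted p = 0.00953).

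MWCNT arrays 5 and 6, which carried the Y-linked signal, were the lowest MWCNT arrays for all 3 raised genes. Mreg was at 10.66 and 11.06 there, Rab15 at 6.07 and 6.37, and Rab34 at 7.06 and 7.22. Array 5 also had the lowest marker score of the MWCNT arrays for T and NK cells (mean difference from controls 0.73, against 1.51 ± 0.53 over the 6 arrays) and for monocyte-derived macrophages (0.50, against 0.81 ± 0.17). Array 6 was not low for T and NK cells (1.69), and its score for monocyte-derived macrophages (0.79) was level with that of array 3. For 3 other lists, arrays 5 and 6 were the lowest MWCNT arrays. These were B and plasma cells (0.18 and 1.00), neutrophils (0.57 and 0.92) and epithelium (-0.13 and 0.01). The scores include dim genes. Detection on all 12 arrays held for 5 of 14 T and NK, 1 of 5 B and plasma and 3 of 7 neutrophil genes. It held for 8 of 12 monocyte-derived and 6 of 8 epithelial genes. Array 6 was not low for dendritic, eosinophil and mast, fibroblast and endothelial, or resident macrophage markers. The part of other cells in the levels of the 3 raised genes was not tested. Without arrays 5 and 6 the log2 differences were 1.54 for Mreg, 2.68 for Rab15 and 1.28 for Rab34, and each was called (limma adjusted p = 3.06e-07, 1.84e-06 and 0.000115).

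**Figure D2:**
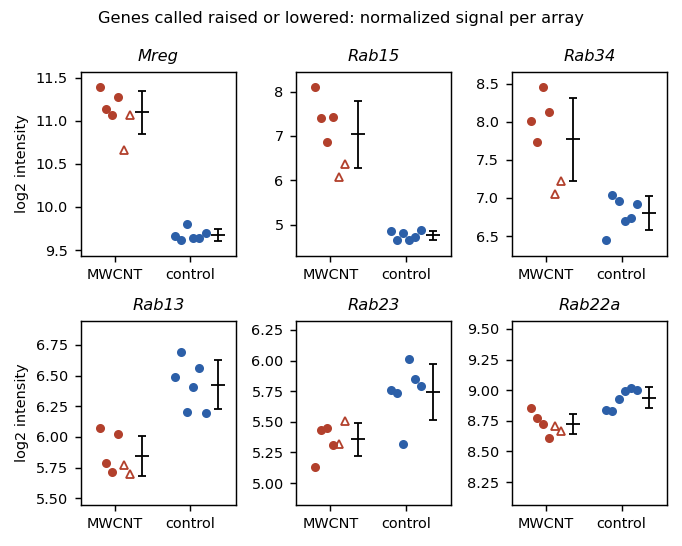
Normalized log2 intensity of the 6 called genes on each array, with MWCNT left of control and black bars for the mean ± SD (n = 6). Open triangles are MWCNT arrays 5 and 6, which carried Y-linked signal, and vertical scales differ between panels. MWCNT arrays lie wholly above control arrays for Mreg, Rab15 and Rab34 and wholly below them for Rab13.

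Rab13, which directs cargo to the cell surface and to junctions of epithelial cells, was the clearest decrease. Its level was 5.70, 5.78 and 6.07 on MWCNT arrays and 6.20, 6.45 and 6.69 on control arrays (lowest, median and highest), without overlap. Rab13 fell by 0.58 ± 0.10 on the log2 scale (SE, n = 6 per group; limma adjusted p = 0.00236). Its probes disagreed: the second probe, detected on 2 MWCNT arrays and 1 control array, differed by 0.20 ± 0.13, and the mean of both probes differed by -0.19 (adjusted p = 0.230). In the authors' processed values Rab13 fell by 0.11 (adjusted p = 0.0196), and without background correction by 0.20 (adjusted p = 0.0112).

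Rab23, known in the mouse embryo as a brake on hedgehog signalling, was a dim gene, detected on 3 MWCNT and 5 control arrays. Its level was 5.13, 5.38 and 5.50 with MWCNT and 5.32, 5.77 and 6.01 in controls (lowest, median and highest), with control array 3 inside the MWCNT range. It fell by 0.39 ± 0.11 (SE, n = 6 per group; limma adjusted p = 0.0292), a call that held under 14 of 25 other settings, in which the adjusted p reached 0.147. It was lost without MWCNT array 1 or 4 or control array 4, 5 or 6, without the arrays with Y-linked signal, without background correction, with median scaling, with trend and robust variances and in the authors' processed values, among other settings.

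Rab22a, which sorts cargo in early endosomes, was at 8.61, 8.72 and 8.85 on MWCNT arrays and 8.83, 8.96 and 9.02 on control arrays (lowest, median and highest). The groups overlapped at their edges. Rab22a fell by 0.21 ± 0.07 (SE, n = 6 per group; limma adjusted p = 0.0482), just inside the threshold, and the call held under 11 of 26 other settings. It was lost without any 1 of MWCNT arrays 2 to 6 or control arrays 3 to 6, with the average over its probes (adjusted p = 0.0715), with trend and robust variances (0.0740), with sex from Y-linked signal as a covariate (0.105), without the arrays with Y-linked signal (0.132) and with median scaling of all probes (-0.05, adjusted p = 0.793), among other settings. With p adjusted over all kept probes, the probe used had 0.0612 and the second probe, which differed by -0.18 ± 0.08, had 0.176. Just outside the threshold, Rab19 was at 9.63 ± 0.08 with MWCNT and 9.82 ± 0.06 in controls (SD, n = 6; difference -0.19 ± 0.06, limma adjusted p = 0.0517).

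Of the 7 tested Rab genes of early endosomes, Rab22a was called and the other 6 were not. Among all named genes 12.8% were called, and with so few genes nothing is read from the count. Rab5c, a marker of early endosomes and young phagosomes, was at 12.91 ± 0.06 with MWCNT and 12.89 ± 0.10 in controls (SD, n = 6), and the 95% interval of the log2 difference ran from -0.12 to 0.16. Rab5a differed by -0.03 (-0.24 to 0.19) and Rab5b by -0.01 (-0.36 to 0.34). Rab31, which acts between the Golgi and endosomes, differed by 0.10 (-0.04 to 0.25), and Rab21, an early endosome GTPase linked to integrin traffic, by 0.16 (-0.05 to 0.36). Rab20, which acts in phagosome maturation in macrophages, was detected on 5 MWCNT and 3 control arrays and differed by 0.25 (-0.13 to 0.63). Their limma adjusted p ran from 0.326 to 0.973.

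Late in the route, Rab7, which drives fusion of phagosomes with lysosomes, was at 12.56, 12.71 and 12.88 on MWCNT arrays and 12.57, 12.64 and 12.72 on control arrays (lowest, median and highest), ranges that overlapped almost wholly. Its log2 difference was 0.08 (95% interval -0.07 to 0.23; limma adjusted p = 0.495). The other kept probes of Rab7 differed by 0.37 ± 0.16 and 0.22 ± 0.18. Neither was called (limma adjusted p = 0.162 and 0.484 over all kept probes). The related Rab7b, a GTPase of transport from endosomes to the Golgi, differed by 0.08 (-0.14 to 0.31) on the probe used, while its other probe was raised by 0.40 ± 0.10 (adjusted p = 0.0164 over all kept probes). Rab9, which acts between late endosomes and the Golgi, differed by 0.20 (-0.10 to 0.50), Rab12 by -0.19 (-0.45 to 0.08) and Rab24, linked to autophagy, by -0.04 (-0.18 to 0.10).

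Of the 11 tested genes of recycling and surface delivery, Rab15 was raised, Rab13 lowered and the others not called. Beside them, 12.8% of all named genes were called. Rab11a, the GTPase of the recycling endosome, differed by 0.17 (95% interval -0.07 to 0.41; limma adjusted p = 0.349) and Rab11b by -0.05 (-0.19 to 0.10). Rab14, which acts on early phagosomes, was at 12.92 ± 0.10 with MWCNT and 12.97 ± 0.04 in controls and differed by -0.05 (-0.19 to 0.08). A second Rab14 probe was lowered by 0.38 ± 0.10 (adjusted p = 0.0264 over all kept probes), and the third probe differed by -0.33 ± 0.17. Rab10, which carries Toll-like receptor 4 to the macrophage surface in the mouse, differed by 0.12 (-0.22 to 0.45). Rab8a differed by 0.04 (-0.10 to 0.18), Rab8b by 0.07 (-0.09 to 0.22), Rab35 by -0.02 (-0.20 to 0.16) and Rab4b by -0.03 (-0.19 to 0.12). Rab25, known from epithelial recycling endosomes, was detected on 6 MWCNT and 4 control arrays and differed by 0.09 (-0.26 to 0.44).

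**Figure D3:**
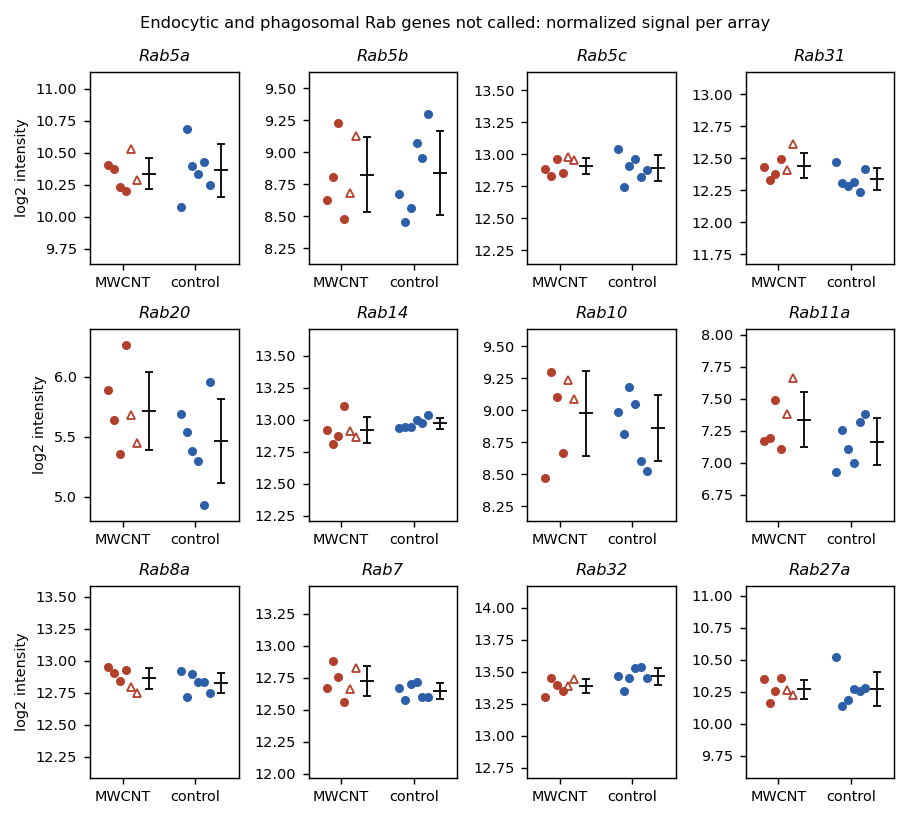
Normalized log2 intensity per array for 12 Rab genes of uptake, recycling, phagosome maturation and release that were not called, with MWCNT left of control and black bars for the mean ± SD (n = 6). Open triangles are MWCNT arrays 5 and 6, and vertical scales differ between panels. The groups overlap in each panel, as for Rab7 (12.73 ± 0.12 with MWCNT, 12.65 ± 0.06 in controls).

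Rab32 and Rab29 are relatives that serve lysosome-related organelles, as melanoregulin does. Rab32 was at 13.39 ± 0.06 with MWCNT and 13.46 ± 0.07 in controls (SD, n = 6), a difference of -0.08 (95% interval -0.20 to 0.05; limma adjusted p = 0.436). Rab29 differed by -0.15 (-0.29 to -0.02; limma adjusted p = 0.129). Rab38, the closest relative of Rab32, was detected on no array.

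Of the tested genes, 11 belong to the endoplasmic reticulum and Golgi and 3 to regulated secretion. None of these 14 was called by limma, beside 12.8% of all named genes, and 3 of them (Rab1a, Rab19 and Rab39) had an unadjusted p under 0.05. With so few genes, nothing is read from that count. Rab1a, which carries cargo from the endoplasmic reticulum to the Golgi, was at 10.52 ± 0.10 with MWCNT and 10.35 ± 0.15 in controls (SD, n = 6; difference 0.18 ± 0.08, limma adjusted p = 0.175), and its other probe differed by -0.18 ± 0.14. Rab6a, of transport within the Golgi, differed by -0.32 ± 0.16 (limma adjusted p = 0.222). Its other 3 kept probes differed by -0.32, -0.31 and -0.20, and the first of these was called lowered (adjusted p = 0.0338 over all kept probes). Rab39 and Rab39b differed by -0.39 ± 0.18 and -0.29 ± 0.17. Rab2a, Rab18, Rab33b and Rab43 differed by -0.05 to 0.04. Rab27a, which docks secretory granules and exosome-bearing endosomes, was at 10.27 ± 0.07 with MWCNT and 10.28 ± 0.13 in controls (difference -0.01, 95% interval -0.16 to 0.15), and the secretory Rab3a and Rab3d differed by -0.13 and 0.03.

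The remaining tested genes were Rab1b, Rab6b, Rab28, Rab40c and Rab42, with differences of 0.14, -0.14, 0.02, 0.14 and -0.28, none called. Over the 39 genes not called, differences ran from -0.39 to 0.25. For 35 of the 39 (89.7%) the 95% interval lay within a 1.5-fold change either way, and the exceptions were Rab6a, Rab20, Rab39 and Rab39b. Over all 8846 named genes not called the same was true of 88.4%. Of the 21 genes with more than 1 kept probe, 5 had another probe of opposite sign (Rab1a, Rab1b, Rab5a, Rab13 and Rab28), and 5 had another probe with a different call when p was adjusted over all kept probes (Rab6a, Rab7b, Rab13, Rab14 and Rab23). On that scale neither probe of Rab22a was called.

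The 14 genes without a test were Rab2b, Rab3b, Rab3c, Rab4a, Rab9b, Rab17, Rab26, Rab27b, Rab30, Rab33a, Rab36, Rab37, Rab38 and Rab40b. Several are known from neurons or from secretory and epithelial cells. Of these, 12 were detected on no array, Rab3c was detected on 1 MWCNT array and Rab17 on 1 control array. Of the regulated secretion genes, 3 of 8 were tested, against 11 of 12 of the recycling genes and 53.2% of all named genes.

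The proteins that regulate or read Rabs were taken from 4 lists of genes. Of 112 tested, 11 were raised (9.82%) and 4 lowered (3.57%), with a median log2 fold change of 0.00, beside 7.48% and 5.30% of all named genes. Most of the calls fell among effectors and adaptors, where 7 of 44 were raised and 3 lowered. Of the 7 raised, Unc13d, Sytl2, Rph3a and Rilpl1 were detected on no control array and entered the test through the MWCNT arrays alone. With probes detected on all 12 arrays, 7 of 98 genes of the 4 lists were raised and 3 lowered. Beside them, 457 of 8386 named genes were raised and 436 lowered. Of 33 exchange factors 1 was raised and 1 lowered, of 29 GTPase-activating proteins 3 were raised, and of 6 genes for prenylation and recycling of Rabs none was called by limma (2, Rabac1 and Rabggta, had an unadjusted p under 0.05).

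Myo5a, the myosin motor that binds Rab27a and Rab11 carriers, was at 9.63, 10.25 and 10.42 on MWCNT arrays and 8.84, 9.05 and 9.48 on control arrays (lowest, median and highest), without overlap. It rose by 1.06 ± 0.14 on the log2 scale (SE, n = 6 per group; limma adjusted p = 0.000269). Mutations of Myo5a cause the dilute coat colour of mice, which loss of Mreg suppresses. Rilpl2, which binds Myo5a and Rab proteins, rose by 0.71 ± 0.12 (limma adjusted p = 0.00196), and its relative Rilpl1 was at least 1.18-fold higher (limma adjusted p = 0.0135), detected on 5 MWCNT arrays and no control array. Rilpl1 was not called in the authors' processed values (0.09, adjusted p = 0.0686). Lrrk2, the kinase that phosphorylates several Rabs, rose by 0.34 ± 0.09 (limma adjusted p = 0.0291), a call lost without MWCNT array 1 or 3 or control array 1, 2 or 5, without the arrays with Y-linked signal and when its probes were averaged (0.07, adjusted p = 0.703), among other settings.

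The 3 effectors described next, like Rilpl1, were detected on no control array, so they passed the filter on dim probes through the MWCNT arrays alone. Unc13d, which primes granules for release, was at least 1.52-fold higher (limma adjusted p = 0.00155), detected on 6 MWCNT arrays and no control array. Sytl2, a granule tether that binds Rab27a, was at least 1.40-fold higher (limma adjusted p = 0.00340), and Rph3a, a Rab3 effector, at least 1.48-fold higher (limma adjusted p = 0.000709), each detected on 5 MWCNT arrays and no control array. The fitted log2 differences of Unc13d, Sytl2 and Rph3a were 0.85, 0.99 and 1.35 here. In the authors' processed values they were 0.13, 0.16 and 0.23, and each was called. These last values are smaller than the minimum fold changes given, so each minimum depends on how the arrays were processed. Myrip, which links Rab27a to Myo7a, fell by 0.61 ± 0.16 (limma adjusted p = 0.0223), and Myo7a itself differed by -0.10 ± 0.08. The Myrip call was lost without control array 4, without the arrays with Y-linked signal and with sex from that signal as a covariate. It was also lost with median scaling and in the authors' processed values, at a limma adjusted p of up to 0.0757. Myrip was not tested where probes had to be detected on all 12 arrays. Rab11fip3, a Rab11 effector, fell by 0.37 ± 0.08 (limma adjusted p = 0.00886), and the phosphatase Ocrl by 0.26 ± 0.08 (limma adjusted p = 0.0402). Rab11fip3 and Ocrl were not called when probes were averaged or with median scaling, and the Ocrl call was lost in 10 of 12 fits that left out 1 array.

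Tbc1d10c, a GTPase-activating protein of haematopoietic cells that is strongly expressed in lymphocytes, gave the largest increase of the 4 lists. It was at 7.69, 8.88 and 9.63 on MWCNT arrays and 6.76, 6.91 and 7.05 on control arrays (lowest, median and highest), without overlap, and rose by 1.93 ± 0.25 (SE, n = 6 per group; limma adjusted p = 0.000248). The T and NK cell marker score was 1.51 ± 0.53 on the same MWCNT arrays, and its part in this increase was not tested. Of the 14 genes in that score, 5 were detected on all 12 arrays. The summed level of the list was 13.53 to 13.96 on MWCNT arrays and 13.46 to 13.69 on control arrays, ranges that overlapped. Tbc1d22a and Tbc1d7 rose by 0.33 ± 0.07 and 0.29 ± 0.08 (limma adjusted p = 0.00622 and 0.0330), and Tbc1d8 differed by 0.75 ± 0.23 (limma adjusted p = 0.0515). The Tbc1d7 call was lost in 8 of 12 fits that left out 1 array, and the Tbc1d22a call when background-corrected values were scaled to the kept probes (0.17, adjusted p = 0.120). Among exchange factors, Dennd3, which acts on Rab12, rose by 0.82 ± 0.17 (limma adjusted p = 0.00624), and Trappc6a, a subunit of the TRAPP complexes that activate Rab1, fell by 0.49 ± 0.08 (limma adjusted p = 0.00185). Of the genes that attach the prenyl anchor to Rabs, Rabggta differed by -0.22 ± 0.09, Rabggtb by 0.10 ± 0.06 and Chm by -0.10 ± 0.16 (limma adjusted p = 0.124, 0.329 and 0.736).

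**Figure D4:**
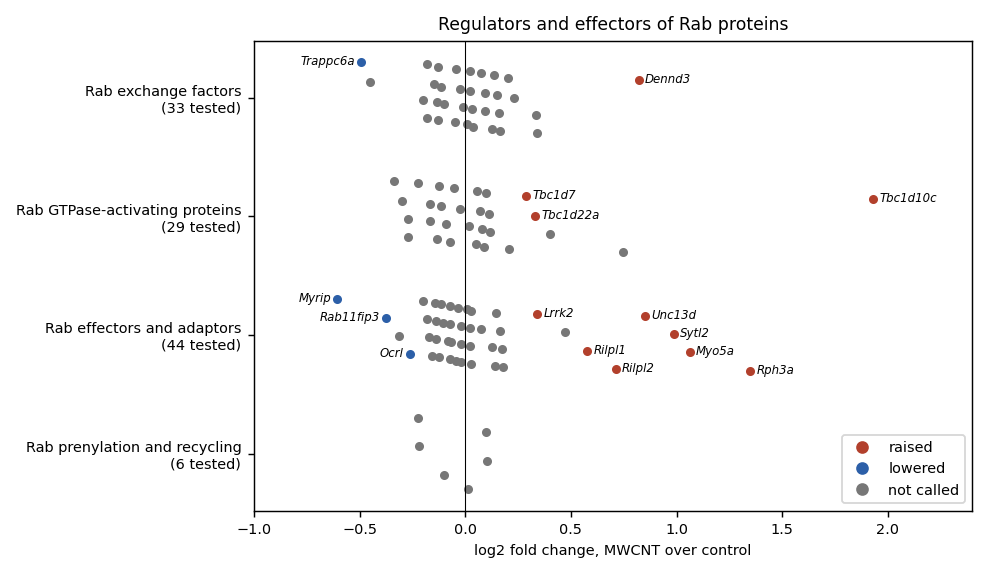
Log2 fold change, MWCNT over control, of the 112 tested regulators and effectors of Rab proteins in 4 lists (6 arrays per group), with vertical spread inside a list for legibility. Colours mark genes raised, lowered or not called by limma. Tbc1d10c (1.93) lies farthest to the right, and 7 of the 11 raised genes are effectors or adaptors. Of these, Unc13d, Sytl2, Rph3a and Rilpl1 were detected on no control array.

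How far the 6 called members depended on processing differed among them. Mreg, Rab15 and Rab34 were called in each fit that tested them, and Rab13 in 25 of 26. The number of Rab genes called lowered changed with several choices, scaling between arrays among them: it was 3 as reported, 1 with median scaling of all probes and 9 when background-corrected values were scaled to the kept probes' median with no quantile step, a setting added after seeing the data. Median scaling moved the median of all named genes by 0.12, to 0.11, and the median of the 45 genes to 0.09. This added scaling put the medians at -0.10 and -0.11. Raised genes made up 58.5% of all calls as reported, 91.4% with median scaling and 32.8% with the added scaling.

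**Figure D5:**
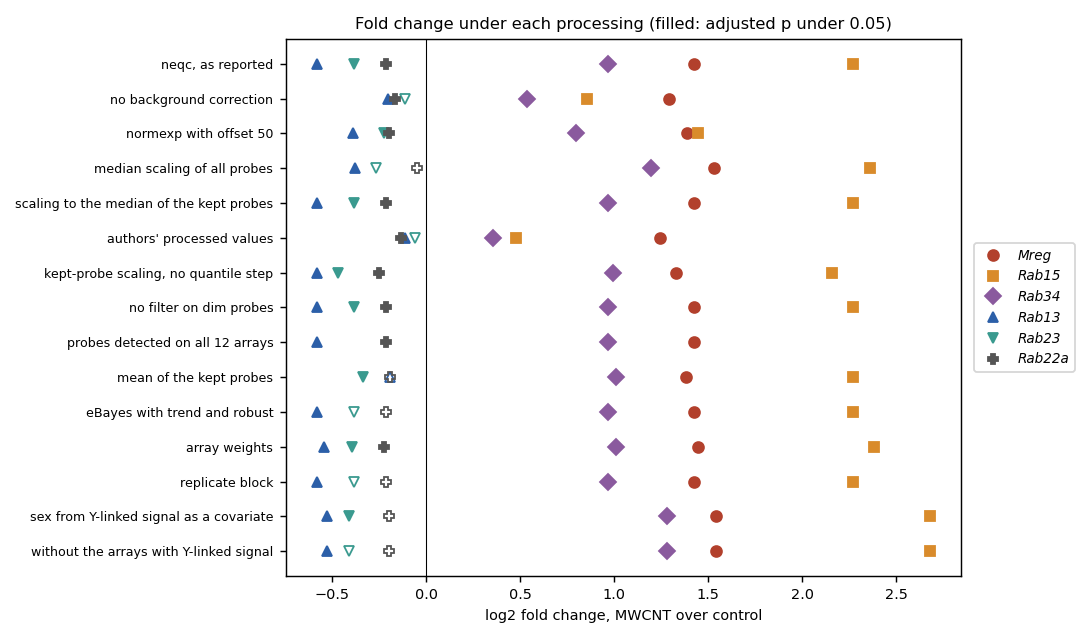
Log2 fold change, MWCNT over control, of the 6 called genes under each way of processing, apart from fits that left out 1 array (filled symbols passed an adjusted p of 0.05). Mreg, Rab15 and Rab34 stay right of 0 and filled in each row that shows them, with Rab15 between 0.48 in the authors' processed values and 2.68 without the arrays with Y-linked signal. Rab23 and Rab22a turn open in several rows.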

How the data were processed

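Illumina Mouse WG-6 v2 arrays measured RNA of alveolar macrophages from MWCNT and control mice, on 6 arrays per group. Per the file headers, the deposited scanner table gives an intensity and a detection p-value per probe and array, as a linear signal with neither background subtraction nor normalization between arrays, judged from its values. The deposited detection p-value sets a probe against the negative controls of its array. The submitters' processing notes name lumi for the second deposited table of intensity values, with no settings. The values were linear, their lowest value was 200.3 and their column medians were 227.8, so they retain an offset of unknown origin, and they were used, after log2, as an alternative. The chip of each array is unknown here, so chip and group cannot be told apart.

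Intensities were processed by neqc of limma 3.58.1 (R 4.3.3): background from detection p-values, offset 16, quantile normalization, log2. Of 45281 probes 34885 carried 1 gene symbol in the platform annotation, 18 several and 10378 none. Probes with a detection p under 0.05 on 3 or more of the 12 arrays were kept (19291 probes), and each gene used its brightest kept probe. The groups entered a two-sided lmFit and eBayes test, with no covariate, with Benjamini-Hochberg adjustment over 13210 features (10143 named genes and 3067 unnamed probes). Array number limits precision. Markers were summed as the log2 of summed linear levels of a list's tested genes, and a marker score is their mean log2 difference from the control mean.

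The members, gene lists and tests were chosen with earlier results of these data known. The rule for named genes took the called members, 16 listed ones and the 5 brightest, from each of 4 lists of Rab regulators and effectors the 4 of smallest adjusted p and the brightest uncalled gene, and from each marker list the gene of smallest adjusted p. Every other member was added to account for all 59, and other called regulators (Sytl2, Rilpl1, Lrrk2, Rab11fip3, Myrip and Ocrl) were named after their values were seen. Promoters came from RefSeq (GRCm38.p6) by gene ID. Alternatives covered background, scaling, filter, probe rule, variance model, array weights, sex, the replicate number as a block and each array left out. Figures used matplotlib 3.10.9 under Python 3.11.15.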

Additional observations from a re-analysis of the deposited data

Results flagged for a closer look

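Among 160 groups of 6 arrays, for the genes named or listed here, 9 held an array set apart from the other 5 by a gap beyond Dixon's 95% critical value. Chance alone flags about 1 group in 20. Among the Rab genes, Rab14 was at 13.11 on MWCNT array 4, above 12.81 to 12.92 on the other MWCNT arrays, and Rab2a at 12.73 on the same array, above 12.56 to 12.61. Rab42 was at 5.07 on control array 6, below 5.52 to 5.78 on the other controls. Trappc6a was at 9.70 on MWCNT array 6, below 10.08 to 10.12, with the largest gap (0.908 of the range), and its call did not rest on that array, since leaving out any 1 array gave differences of -0.52 to -0.43, each called. Tbc1d8 was at 5.51 on control array 3, above 4.74 to 5.00 on the other controls. Sytl2 was at 5.34 on control array 4, above 4.82 to 4.95, and Rilpl1 at 4.88 on control array 6, below 5.14 to 5.23. Of the marker genes, Il7r was at 8.53 on MWCNT array 5, below 9.59 to 10.18 on the other MWCNT arrays, and S100a9 at 5.21 on control array 1, above 4.51 to 4.73.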

How the results depend on the processing

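The count of 3 raised Rab genes stayed between 2 and 4 under the alternatives, with 2 where probes had to be detected on all 12 arrays, which leaves Rab15 untested, and 4 with median scaling of all probes, which added Rab11a. The count of lowered Rab genes was less firm. It was 3 as reported and 1 with median scaling, with trend and robust variances, with the replicate block and without the arrays with Y-linked signal, 5 with no filter on dim probes and 9 (12 called in all) with background-corrected values scaled to the kept probes, the setting added after seeing the data. Leaving out each array in turn gave 1 to 4 lowered genes, with 1 without MWCNT array 4, control array 4 or control array 5. Over all named genes, median scaling gave 1356 raised and 127 lowered, probes detected on all 12 arrays 457 raised, and the added scaling 1390 lowered and 2069 called in all, against 759 raised, 538 lowered and 1297 in all as reported. Among Rab regulators and effectors, 11 were raised and 4 lowered as reported, 18 raised and 1 lowered with median scaling, 7 raised with probes detected on all 12 arrays, 15 lowered and 24 called in all with the added scaling, and 2 to 6 lowered without 1 array (2 without control array 4). The cause of these differences between scalings was not tested. Over the single genes followed under all alternatives, 1968 values stayed on their side of the threshold, 68 lost a call, 29 gained one and 0 called values changed sign. Same-numbered arrays of the groups had correlations of -0.18 to 0.15 in their deviations, over 0.1 for 4 of 6 pairs. Of the 6 MWCNT arrays, 3 correlated best with their own number. These values do not settle whether the numbers mark pairs. The reported fit has no block, and the block is given as an alternative. With the replicate block 4 Rab genes were called, 3 raised and 1 lowered, and the calls of Rab23, Rab22a, Lrrk2 and Ocrl were among those lost (adjusted p = 0.0629 for Rab23, 0.124 for Rab22a and 0.0501 for Lrrk2). Signal over background limits the dim genes: Rab15, Rab20, Rab23, Rab25 and Rab42 were not detected on all 12 arrays.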

Other observations

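Rab44, an atypical large member of the family, fell outside the rule because of its number, and was chosen here after its values were seen. It was detected on all 12 arrays, at 10.92, 11.11 and 11.40 on MWCNT arrays and 11.59, 11.77 and 11.91 on control arrays (lowest, median and highest), without overlap. It fell by 0.62 ± 0.10 on the log2 scale (SE, n = 6 per group; limma adjusted p = 0.000841), and it was called lowered under each of 26 alternatives, with estimates of -0.76 to -0.55. Rabl2 differed by 0.03 ± 0.10, Rabl3 by -0.04 ± 0.14 and Rabl6, another Rab-like gene, by -0.24 ± 0.09 (limma adjusted p = 0.0852).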
